A study of Mus musculus with 14 samples.

Results

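Trophoblast stem cells (TSC, trophoectoderm stem cells in the labels) and extraembryonic endoderm stem cells (XEN) were compared in the vehicle arm, DMSO, of an experiment on the METTL3 inhibitor STM2457. The comparison took the 2 TSC libraries and the 3 XEN libraries kept in DMSO, 5 of the 14 libraries of the series. Its members were the protein-coding genes other than histone genes and genes encoded in mitochondria, 21813 of the 55416 genes counted, since XEN libraries held more RNA of the kinds that lack a poly(A) tail. Both lines are labelled wild type (WT) and come from a hybrid of Mus molossinus and Mus musculus. XEN cells grew in DMEM with 10% FBS, and TSC in RPMI conditioned by embryonic fibroblasts (MEF) with 20% FBS, Fgf4 and sodium pyruvate, so that the line and its medium cannot be told apart. The labels name 1 line of each kind without stating whether its replicates were grown apart. The p-values therefore rest on the spread between libraries of a group, which may be technical. The matching STM2457 libraries (50 µM for 12 h, 2 of TSC and 3 of XEN) served as a repeat in other samples. Levels of a pair of DMSO libraries of epiblast stem cells (EpiSC, genotype XmolXmus-ΔTsix) are given at a single point, for the chromosomes. The fit behind the low-count filter, the scaling and the p-values took all 14 libraries, EpiSC of both arms included.

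At implantation the mouse embryo holds 3 lineages. The trophectoderm gives the placenta, and TSC are its self-renewing state, kept by FGF signalling through Fgfr2 and by transcription factors such as Cdx2, Eomes, Elf5 and Tfap2c. The primitive endoderm gives the parietal endoderm, which lays down a thick basement membrane around the embryo, and the visceral endoderm, which takes up and passes on nutrients. XEN cells are the stem cell state of this lineage, in which Gata4, Gata6 and Sox17 are central.

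Total counts were 6826496 to 9397814 in the XEN libraries and 18782253 to 19250528 in the TSC libraries, so low values carry more counting error in XEN. The member genes took 77.3% to 78.5% of counts in XEN and 95.6% to 95.7% in TSC, while mitochondrial ribosomal RNA took 14.6% to 15.4% and 0.0366% to 0.0452%. Replicates also differed more in XEN: the chi-square per degree of freedom between replicates was 5.32 for the TSC pair and 26.8, 10.3 and 24.1 for the 3 XEN pairs, with XEN replicate 2 in both of the larger values. Cytosolic ribosomal protein genes held 8.02% to 8.5% of counts in TSC and 2.76% to 3.72% in XEN. Of the 84 tested, 70 were higher in TSC and 2 lower, with a median log2 fold change of 1.01. This difference in library make-up went with the line in every library, so that the make-up and the line cannot be told apart. Its part in the results below was not tested. The directions of gene lists, families and 247 named genes were checked with the libraries scaled to the ribosomal protein genes instead. That scaling moves the median of all genes by -1.06 on the log2 scale. Under that scaling a gene given below as higher in TSC by less than about 1.06 falls to the other side of 0.

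Most genes differed between the lines. Of the 14243 member genes that passed the filter on low counts and were tested, 10422 were called at an adjusted p under 0.05 (73.2%; edgeR quasi-likelihood test, Benjamini-Hochberg, two-sided), 6084 higher in TSC (42.7%) and 4338 lower (30.5%). The libraries of the lines did not overlap in 11284 genes (79.2%). Because so many genes passed, the text turns to those that also differed by at least 4-fold: 2227 higher in TSC (15.6%) and 1452 lower (10.2%). Such differences were often large, with 1262 genes at least 16-fold higher and 690 at least 16-fold lower, and 3967 called genes differed by less than 2-fold. In the 4-fold sets 596 genes had no count in XEN and 238 none in TSC, and 478 and 210 of these differed by at least 4-fold against the floor of 3 counts. The median log2 fold change of all tested genes was 0.21 (quartiles -0.74 and 1.19). Genes higher in TSC made up 58.4% of all calls under the scaling used here and 22.8% with the libraries scaled to ribosomal protein genes. For 4-fold calls these shares were 60.5% and 34.1%. Against these shares each gene group below is to be read. Levels are CPM, counts scaled to library size with the TMM factors of edgeR. CPM is not divided by gene length, so levels are compared between lines and not between genes. A pair such as 202 against 16.2 CPM (Fgfr2) gives the mean in TSC (n = 2) and then in XEN (n = 3), and a log2 fold change is TSC minus XEN ± SE. Where a line had no count for a gene, "at least" gives the fold against 3 counts over that line's libraries. With 1 to 3 counts, the ratio and its 95% counting interval stand instead, which covers counting error only. The SE is derived from the test statistic, and with few counts in a line it can fall short of the counting error. This holds, among others, for Sox17, Flrt3, Fst and Srgn, with 4, 5, 5 and 6 counts in TSC. Such folds are less precise than their SE shows.

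**Figure D1:**
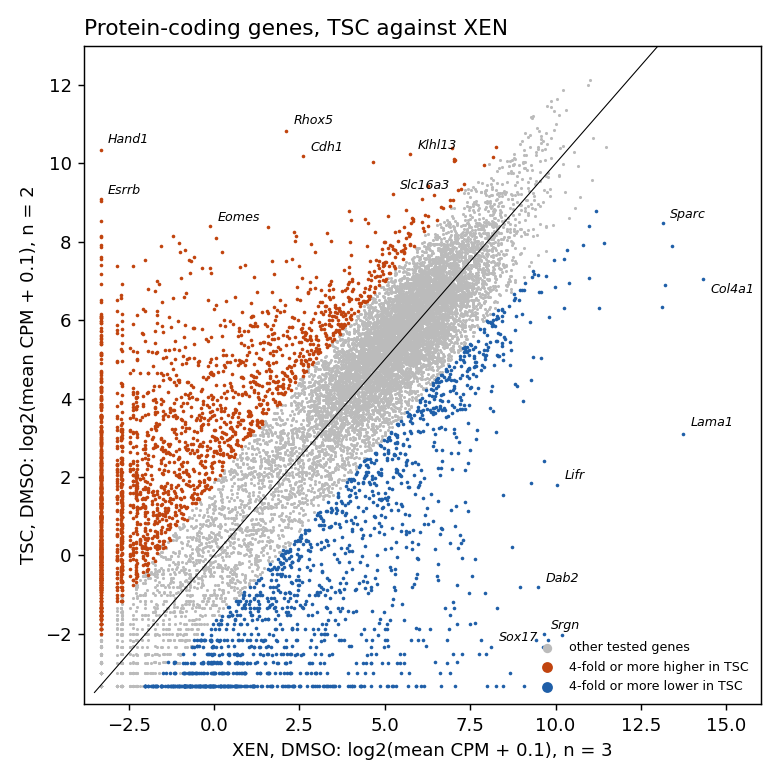
Mean level of each of the 14243 tested member genes in XEN (horizontal, n = 3) and TSC (vertical, n = 2) in DMSO, as log2(CPM + 0.1), with equal levels on the line. The 2227 genes at least 4-fold higher in TSC are orange and the 1452 at least 4-fold lower are blue; the column at the left edge holds genes with no count in XEN, and the matrix genes Col4a1, Lama1 and Lamc1 lie farthest to the right.

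The markers of both lines followed the labels. Cdx2, the trophectoderm homeobox factor, had 74.5 and 69.5 CPM in TSC and 0, 0.162 and 0 CPM in XEN. Elf5, an ETS factor of the TSC circuit, had 164 and 172 CPM in TSC and 0, 0.162 and 0.122 CPM in XEN. Eomes, a T-box factor needed for trophectoderm development, had 350.5 and 324 CPM in TSC and 0.783, 0.972 and 0.732 CPM in XEN. All 3 were high in both TSC libraries and at or near 0 in every XEN library. The ratio was 1495-fold, 95% counting interval 268 to 59046, for Cdx2 and 1747-fold, 95% counting interval 483 to 14422, for Elf5, and the log2 fold change of Eomes was 8.67 ± 0.17 (adjusted p = 9.04e-16). Gata6, which starts the primitive endoderm programme, had 427, 339 and 294 CPM in XEN and 2.62 and 2.96 CPM in TSC. Sox17, an endoderm SOX factor, had 374, 229 and 231 CPM in XEN and 0.0969 and 0.1 CPM in TSC. Gata4, the partner of Gata6, had 620.5, 657 and 572 CPM in XEN and 23.0 and 21 CPM in TSC. These 3 were high in all XEN libraries, and the lines did not overlap. Their log2 fold changes were -6.98 ± 0.21 (adjusted p = 3.26e-14), -11.34 ± 0.43 (adjusted p = 3.64e-11) and -4.81 ± 0.14 (adjusted p = 2.12e-14). Gata4 and Gata6 were low but present in both TSC libraries. In bulk RNA, a low level from a few cells and a low level in every cell cannot be told apart, here or below.

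**Figure D2:**
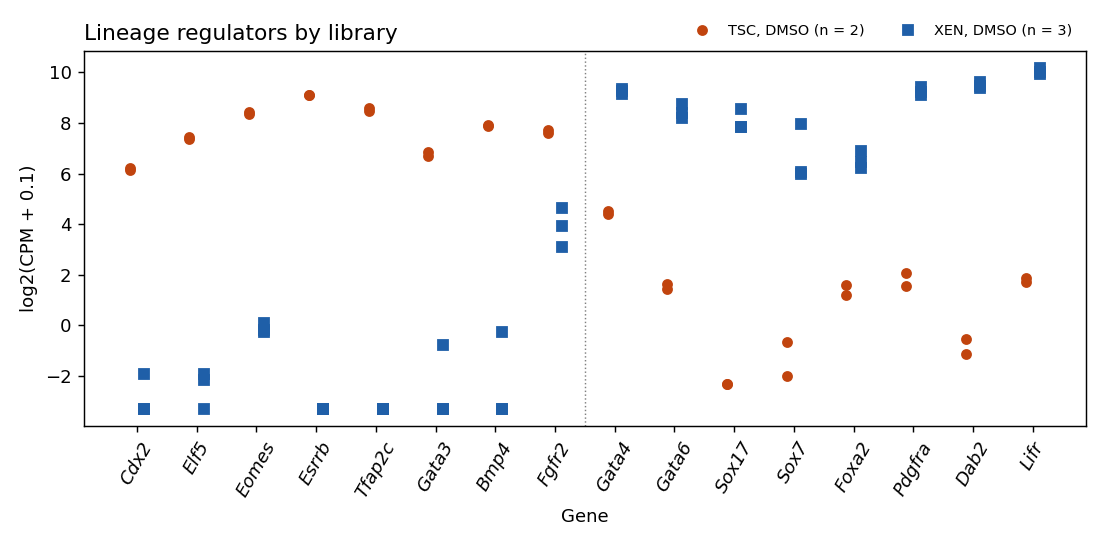
Level of 16 lineage genes in each DMSO library, as log2(CPM + 0.1) on the vertical axis, with 2 TSC libraries as orange circles and 3 XEN libraries as blue squares. Left of the dotted line are genes of TSC, right of it genes of XEN; in each gene the libraries of the lines do not overlap, and of the genes at the right Sox7 spreads most among XEN libraries (63.9, 251 and 66.4 CPM).

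Of 19 tested regulators of TSC, 18 were higher in TSC, 14 of them by at least 4-fold, and 1 was lower. Esrrb, the nuclear receptor that FGF signalling sustains in these cells, had 545 and 546 CPM in TSC and 0, 0 and 0 CPM in XEN. Tfap2c, the AP-2 factor that acts with Cdx2 and Eomes, had 385 and 353 CPM in TSC and 0, 0 and 0 CPM in XEN. Sox2, which TSC share with pluripotent cells, had 286 and 269 CPM in TSC and 0, 0 and 0 CPM in XEN. No XEN library held a count of any of these 3, which gives differences of at least 3775-, 2554- and 1918-fold. Gata3 and Gata2, the GATA factors of trophoblast, were higher too (Gata3: log2 fold change 9.10 ± 0.34, 110.2 against 0.163 CPM; Gata2: log2 fold change 6.53 ± 0.49, 31.9 against 0.349 CPM). Bmp4 (log2 fold change 9.65 ± 0.38, 238 against 0.244 CPM), Ets2 (log2 fold change 2.62 ± 0.12, 259 against 41.9 CPM) and Satb1 (log2 fold change 3.95 ± 0.15, 50.9 against 3.29 CPM) were on the same side, and Rhox6 reached 244 against 7.05 CPM. The smaller differences were those of genes that both lines carried: Tead4, the TEAD factor needed to form the trophectoderm (log2 fold change 0.88 ± 0.15, 99.5 against 54.1 CPM), Arid3a (log2 fold change 0.71 ± 0.15, 80.9 against 49.7 CPM) and Id2 (log2 fold change 0.57 ± 0.19, 155 against 104 CPM). With ribosomal protein scaling 14 of the 19 were higher and 2 lower. Klf5, a KLF factor that supports TSC as well as embryonic stem cells, was the member that was lower in TSC: it had 41.6 and 37.8 CPM in TSC and 196, 192 and 210.1 CPM in XEN, with no overlap (log2 fold change -2.33 ± 0.14, adjusted p = 1.72e-10).

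Genes of differentiated trophoblast were mostly higher in TSC where they could be tested at all. Of 36 listed genes 22 were tested, 16 were higher and 3 lower, each by at least 4-fold, and 10 had no count in either line. The median log2 fold change was 6.04, or 4.55 with genes at 0 in a line set to their bound. Hand1, the bHLH factor that drives giant cell formation, had 1361 and 1249 CPM in TSC and 0, 0 and 0 CPM in XEN. With no count in any XEN library, this is at least 9030.5-fold. Gjb5, a gap junction protein of the early placenta, was higher too (log2 fold change 9.07 ± 0.22, 212 against 0.4 CPM). Phlda2, an imprinted gene that limits placental growth, was on the same side (log2 fold change 6.75 ± 0.23, 163 against 1.58 CPM). Ascl2, which maintains the spongiotrophoblast, had a low level (at least 26.6-fold, 3.85 against 0 CPM), as had Cyp11a1, the first enzyme of steroid hormone synthesis (at least 21.7-fold, 3.13 against 0 CPM). Markers of end states were absent or rare: Gcm1 of syncytiotrophoblast, Tpbpa of spongiotrophoblast and Prl3b1 of the later placenta had no count in either line. In the prolactin family, 2 of 25 genes were tested, Prl7a1 (at least 25.6-fold, 3.70 against 0 CPM) and Prl2c5 (at least 5.34-fold, 0.771 against 0 CPM), and 18 had no count. The 3 listed genes lower in TSC were Stra6, the receptor for retinol-binding protein (log2 fold change -7.93 ± 0.52, 0.124 against 32.3 CPM), the kinase gene Nrk (log2 fold change -5.09 ± 0.21, 5.04 against 172 CPM) and Plac8 (log2 fold change -3.64 ± 0.73, 0.222 against 2.90 CPM).

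On the other side, 17 of 20 primitive endoderm regulators were lower in TSC, 14 of them by at least 4-fold, and the median log2 fold change was -4.45. Dab2, an adaptor for endocytosis that marks the lineage early, had 706, 666 and 779.6 CPM in XEN and 0.582 and 0.352 CPM in TSC. Pdgfra, the PDGF receptor by which primitive endoderm cells are often recognised, had 549.8, 607 and 691 CPM in XEN and 4.07 and 2.86 CPM in TSC. Lifr, the receptor for leukaemia inhibitory factor, had 968, 1045 and 1146 CPM in XEN and 3.20 and 3.57 CPM in TSC. These 3 genes were high in every XEN library and low in both TSC libraries, with log2 fold changes of -10.56 ± 0.28, -7.47 ± 0.22 and -8.28 ± 0.18. Sox7 varied among XEN libraries, with replicate 2 the highest (63.9, 251 and 66.4 CPM in XEN and 0.533 and 0.151 CPM in TSC), and was still lower in TSC (log2 fold change -8.49 ± 1.21, adjusted p = 0.000182). Hnf4a, which directs the visceral endoderm's metabolic genes, had no count in TSC (at least 267-fold, 0 against 19.8 CPM). Foxa2 (log2 fold change -5.21 ± 0.22, 2.53 against 94.0 CPM) and Tcf7l2 (log2 fold change -5.22 ± 0.28, 4.39 against 164 CPM) were lower as well. Sall4, known from pluripotent cells and XEN cells alike, was clearly present in both lines (log2 fold change -1.34 ± 0.13, 107 against 270.3 CPM). Grb2, the adaptor that links FGF receptors to Ras and without which primitive endoderm does not form, went the other way, with 315 and 289.9 CPM in TSC and 34.3, 45.0 and 37.3 CPM in XEN (log2 fold change 2.96 ± 0.15, adjusted p = 2.25e-11). Foxa1 and Foxa3 did not pass the test (Foxa3: log2 fold change 0.72 ± 0.55, 1.10 against 0.644 CPM, adjusted p = 0.25).

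The genes of the parietal endoderm and its basement membrane were among the most abundant RNAs of XEN cells and far lower in TSC. Col4a1, a chain of the collagen IV network, had 20119.8, 17119.5 and 24261 CPM in XEN and 133 and 134 CPM in TSC. Lama1, the laminin alpha chain of the embryonic basement membrane, had 12252, 14228 and 14707 CPM in XEN and 8.97 and 8.04 CPM in TSC. Both genes were high in each XEN library and far lower in both TSC libraries. The log2 fold changes were -7.26 ± 0.21 (adjusted p = 2.56e-14) and -10.66 ± 0.22 (adjusted p = 9.07e-16). The partners that make up the same trimers were lower in TSC too: Col4a2 (log2 fold change -6.32 ± 0.23, 118 against 9442 CPM), which lies head to head with Col4a1, Lamb1 (log2 fold change -6.79 ± 0.16, 80.9 against 8930.5 CPM) and Lamc1 (log2 fold change -5.52 ± 0.14, 236 against 10814 CPM). So were the linkers Nid1 (log2 fold change -3.45 ± 0.27, 124 against 1353 CPM) and Nid2 (log2 fold change -4.54 ± 0.18, 33.0 against 768 CPM), and Sparc, a collagen-binding protein (log2 fold change -4.67 ± 0.14, 355 against 9054 CPM). Over the 32 basement membrane genes together, the summed level was 71421 to 83824 CPM in XEN and 2044 to 2227 CPM in TSC. Of 28 tested, 16 were lower in TSC and 7 higher.

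Among the 7 genes on the TSC side were chains of other laminins and other matrix parts. Lama5, the alpha chain of laminins in later epithelia, had 510.1 and 418 CPM in TSC and 105, 114 and 95.6 CPM in XEN (log2 fold change 2.15 ± 0.13). Lama3, an alpha chain of epithelial laminins, had 3.59 and 3.87 CPM in TSC and 0, 0 and 0.366 CPM in XEN (25.8-fold, 95% counting interval 8.82 to 125). Col18a1 (log2 fold change 4.85 ± 0.25, 11.3 against 0.362 CPM), the integrin ligand Npnt (log2 fold change 4.09 ± 0.36, 10.8 against 0.658 CPM), Fbln1 (log2 fold change 3.72 ± 0.23, 32.8 against 2.38 CPM) and Frem2 (log2 fold change 0.56 ± 0.22, 5.97 against 4.13 CPM) were also higher. With ribosomal protein scaling 6 genes were called higher in TSC, 4 of them at 4-fold. Integrins, the receptors for this matrix, were split, 6 higher and 7 lower of 17, or 5 and 11 with ribosomal protein scaling. Itga7, a laminin receptor (log2 fold change 7.61 ± 0.20, 162 against 0.816 CPM), and Itgb3, the partner of the vitronectin receptor (log2 fold change 6.99 ± 0.28, 44.0 against 0.357 CPM), were higher in TSC, while Itga8, a receptor for Npnt, was lower (log2 fold change -5.47 ± 0.41, 0.297 against 13.4 CPM). Itgb1, shared by most of these receptors, was near level (log2 fold change -0.33 ± 0.09, 439.9 against 552 CPM).

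Enzymes and chaperones that make and export collagen were lower in TSC almost throughout, 21 of 23, with 12 of them at least 4-fold and a median log2 fold change of -2.42. Serpinh1, the collagen chaperone HSP47, had 2435, 2308 and 2733 CPM in XEN and 80.7 and 77.6 CPM in TSC, every XEN library above both TSC libraries (log2 fold change -4.98 ± 0.15, adjusted p = 4.27e-14). P3h2, which hydroxylates prolines of collagen IV, was lower (log2 fold change -6.92 ± 0.25, 0.76 against 93.8 CPM), as was the lysyl hydroxylase Plod2 (log2 fold change -2.42 ± 0.21, 186 against 1000.1 CPM). Mia3, needed to load collagen into transport vesicles, was lower too (log2 fold change -2.47 ± 0.20, 62.9 against 349 CPM). The exception was the cross-linking oxidase Loxl1 (at least 9.25-fold, 1.34 against 0 CPM). Lox did not pass the test. Other parietal endoderm genes moved with this group: Fst, an activin-binding protein (log2 fold change -12.71 ± 0.49, 0.122 against 884 CPM), Srgn, a proteoglycan core protein (log2 fold change -12.34 ± 0.24, 0.149 against 811 CPM), the intermediate filament gene Vim (log2 fold change -10.04 ± 0.34, 0.468 against 502 CPM) and the plasminogen activator Plat (log2 fold change -10.01 ± 0.41, 0.296 against 313 CPM). Thbd (log2 fold change 3.74 ± 0.31, 14.1 against 1.02 CPM) and Snai1 (log2 fold change 1.73 ± 0.59, 49.6 against 15.3 CPM), both also listed for parietal endoderm, were higher in TSC. With ribosomal protein scaling 1 gene of the parietal list, Thbd, was called higher.

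**Figure D3:**
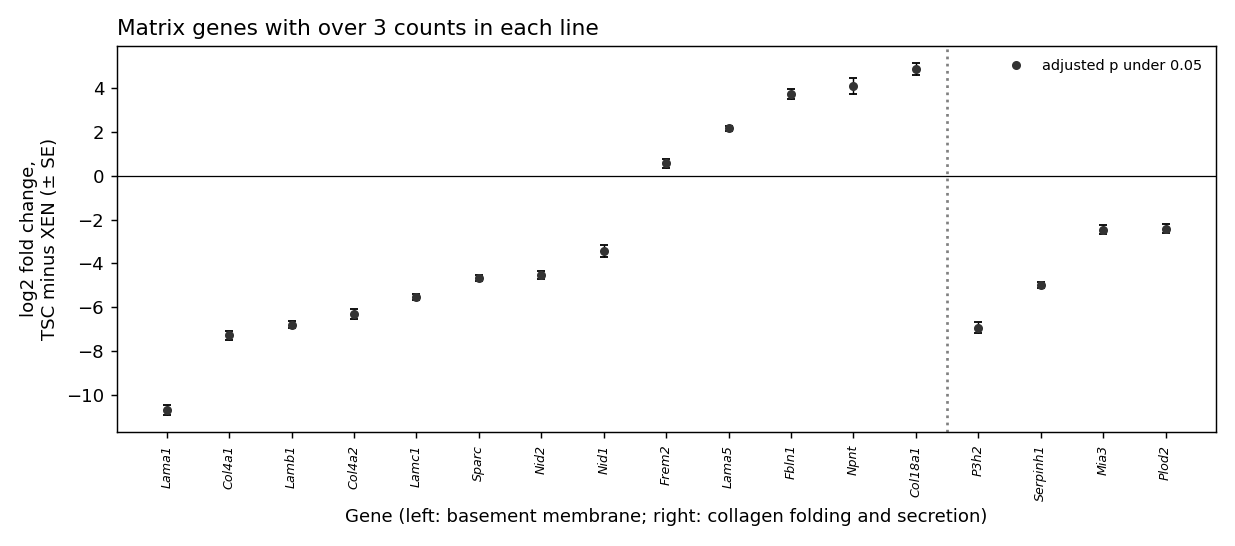
log2 fold change (TSC minus XEN ± SE) of the basement membrane genes named in the text (left of the dotted line) and genes of collagen folding and secretion (right) that had over 3 counts in each line. All points shown passed an adjusted p of 0.05; on the left the laminin chains lie on both sides of 0, from Lama1 at -10.66 to Lama5 at 2.15, while on the right the 4 points lie below 0.

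The visceral endoderm list was divided. Of 24 genes 15 were tested, 10 were lower in TSC and 4 higher, all of these by at least 4-fold. Ttr, the carrier of thyroxine and retinol-binding protein, had 58.4, 64.3 and 88.9 CPM in XEN and 0 and 0 CPM in TSC (at least 953-fold). Lrp2, or megalin, an endocytic receptor that takes up maternal proteins at the apical surface, had 681, 1298 and 409 CPM in XEN and 0.194 and 0 CPM in TSC. Its partner Cubn, or cubilin, had 102, 209 and 48.9 CPM in XEN and 0 and 0.0502 CPM in TSC. Both receptors were high in XEN and at 1 to 4 counts in TSC, with XEN replicate 2 the highest. Spink1, a trypsin inhibitor, had 351, 208 and 199 CPM in XEN and 0 and 0 CPM in TSC (at least 3419-fold). Ihh (log2 fold change -8.21 ± 0.62, 0.0978 against 31.3 CPM) and Dpp4 (log2 fold change -9.05 ± 0.27, 0.123 against 69.6 CPM) were on the same side. Amn, the membrane anchor of Cubn, was higher in TSC (log2 fold change 4.44 ± 0.42, 8.49 against 0.363 CPM), against the direction of its partner, and so were Trf (at least 17.6-fold, 2.54 against 0 CPM), Vil1 (16.6-fold, 95% counting interval 5.66 to 80.3, 2.39 against 0.135 CPM) and Rhox5. Afp, Apob and Alb, the secreted proteins by which mature visceral endoderm is known, were too low to test, with 8, 4 and 0 counts over the XEN libraries.

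Lipoprotein genes of the visceral endoderm were likewise divided, 10 lower and 6 higher of 19. Apoe was lower in TSC (log2 fold change -2.67 ± 0.27, 37.6 against 239 CPM), as were Mttp, which loads lipid onto apolipoprotein B (log2 fold change -4.27 ± 0.24, 3.23 against 62.4 CPM), and the cholesterol exporter Abca1 (log2 fold change -4.57 ± 0.22, 5.96 against 141 CPM). Apoc1, beside Apoe in the genome, was found in TSC alone (at least 468-fold, 67.6 against 0 CPM). The receptors Scarb1 (log2 fold change 3.01 ± 0.15, 121 against 15 CPM) and Lrp8 (log2 fold change 2.76 ± 0.29, 57.4 against 8.53 CPM) were higher in TSC. Among 36 genes of endocytosis and the lysosome, 22 were lower and 8 higher, with a median of -0.80. These values were, under the ribosomal protein scaling, 30, 3 and -1.90, and 17 genes in place of 8 were at least 4-fold lower. The protease Ctsl had 2593, 2424 and 3275 CPM in XEN and 234 and 265 CPM in TSC (log2 fold change -3.47 ± 0.18), and Lrpap1, the chaperone of Lrp2, was lower as well (log2 fold change -3.45 ± 0.16, 37.6 against 412 CPM). Against this, the lysosomal glycosidases Hexa and Gusb had almost no reads in XEN. Gusb had 32.1 and 33.5 CPM in TSC and 0.627, 0.162 and 0.732 CPM in XEN, and Hexa had 29.6 and 31.4 CPM in TSC and 0.313, 0 and 3.29 CPM in XEN. Both were low in every XEN library.

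Epithelial adhesion genes were mostly higher in TSC. Of 31 tested genes of tight junctions and epithelial adhesion, 24 were higher in TSC, 18 by at least 4-fold, and 2 were lower. With ribosomal protein scaling 19 were higher and 8 lower. Cdh1, E-cadherin, had 1172 and 1155 CPM in TSC and 7.36, 2.59 and 8.05 CPM in XEN (log2 fold change 7.57 ± 0.24, adjusted p = 4.56e-13). Cdh3, P-cadherin, which is in none of the lists, had 190.1 and 186 CPM in TSC and no count in XEN (at least 1302-fold). Epcam (log2 fold change 4.82 ± 0.14, 442 against 15.5 CPM) and the claudins Cldn3 (at least 1000.1-fold, 145 against 0 CPM), Cldn4 (at least 841-fold, 122 against 0 CPM) and Cldn7 (log2 fold change 8.17 ± 0.48, 195 against 0.569 CPM) showed the same. Grhl2 and Esrp1, a transcription factor and a splicing factor of epithelia, were higher in TSC (Grhl2: log2 fold change 5.85 ± 0.27, 59.0 against 1.03 CPM; Esrp1: log2 fold change 5.01 ± 0.21, 105 against 3.15 CPM). The scaffold Tjp1, or ZO-1, did not pass the test (log2 fold change 0.15 ± 0.11, 231 against 208 CPM, adjusted p = 0.226). Ocln, a further tight junction strand protein, was lower in TSC, with 25.4, 14.1 and 32.0 CPM in XEN and 1.07 and 1.61 CPM in TSC (log2 fold change -4.16 ± 0.48). Of 14 keratin and desmosome genes 9 were higher and 3 lower, or 6 and 4 with ribosomal protein scaling. At least 4-fold higher were 6, or 3 with that scaling. Krt7 was higher (log2 fold change 7.70 ± 0.34, 51.9 against 0.253 CPM), Krt8 and Krt18, which form filaments together, differed by -0.47 and 1.22 on the log2 scale, and Krt23 was found in XEN alone (at least 104-fold, 0 against 7.71 CPM).

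Genes linked to mesenchymal states were divided as well, 5 higher and 5 lower of 11 tested. Zeb1, a repressor of Cdh1, had 65.0, 83.2 and 81.4 CPM in XEN and 1.41 and 1.86 CPM in TSC (log2 fold change -5.55 ± 0.18), and Zeb2 was seen in XEN alone (at least 56.2-fold, 0 against 4.16 CPM). Vim, above, and Fn1 (log2 fold change -1.73 ± 0.55, 14.9 against 49.4 CPM) were lower in TSC too. Snai1, another repressor of Cdh1, was higher in TSC, and Twist1 had 1.16 and 1.26 CPM in TSC and no count in XEN.

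Fgfr1, Fgfr2 and most of the genes that ERK activity induces were higher in TSC, and the ligands Fgf3 and Fgf10 and the receptors Fgfr3 and Fgfr4 lower. Fgfr2, the receptor of TSC, had 212 and 193 CPM in TSC and 15.2, 8.42 and 24.9 CPM in XEN (log2 fold change 3.62 ± 0.29). Fgfr1 was higher too (log2 fold change 2.60 ± 0.58, 59.8 against 10.2 CPM, adjusted p = 0.00283), though not past the threshold with ribosomal protein scaling (adjusted p = 0.0711). Fgfr3 (log2 fold change -1.95 ± 0.18, 7.76 against 29.9 CPM) and Fgfr4 (log2 fold change -1.42 ± 0.28, 6.26 against 16.8 CPM) were lower in TSC. The ligands Fgf3 and Fgf10 had 10.7, 13.0 and 9.88 CPM and 11.9, 27.4 and 9.88 CPM in XEN and no count in TSC. Klb, the co-receptor for endocrine FGFs, had 59.7, 48.9 and 49.4 CPM in XEN and 0.0485 and 0 CPM in TSC. Fgf4, which the TSC medium supplied as protein, had 2 counts in TSC and 0 in XEN. Of 19 feedback genes of the FGF-ERK pathway, 13 were higher in TSC and 2 lower, with a median of 2.05. With ribosomal protein scaling 11 were higher and 6 lower, with a median of 0.98. At least 4-fold higher were 10, or 4 with that scaling. Etv4, an ETS factor induced by FGF, had 145 and 129.6 CPM in TSC and 1.88, 3.24 and 1.34 CPM in XEN (log2 fold change 6.03 ± 0.34). Its relative Etv5 (log2 fold change 2.76 ± 0.14, 112 against 16.6 CPM), the inhibitors Spry1 (log2 fold change 3.82 ± 0.30, 18.6 against 1.34 CPM) and Spry4 (log2 fold change 2.33 ± 0.18, 92.3 against 18.3 CPM) and the ERK phosphatase Dusp6 (log2 fold change 2.33 ± 0.15, 40.9 against 8.22 CPM) were higher, and Dusp4 was lower (log2 fold change -1.64 ± 0.34, 13.5 against 42.3 CPM). Spry2 did not pass the test (log2 fold change 0.11 ± 0.14, 49.8 against 46.0 CPM, adjusted p = 0.503).

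In BMP signalling several ligands and feedback genes were higher in TSC, and 2 secreted inhibitors and several receptors lower. Among 48 tested genes of the BMP, Nodal and activin pathways, 21 were higher and 18 lower, so the list was split (median 0.05, or -0.56 with ribosomal protein scaling). Bmp8b had 243 and 222 CPM in TSC and Bmp7 49.3 and 48.2 CPM, and neither had a count in XEN. Smad6, an inhibitory SMAD that BMP signals induce, was higher (729.5-fold, 95% counting interval 202 to 6024, 70.3 against 0.108 CPM). Smad7 (log2 fold change 2.88 ± 0.18, 83.4 against 11.5 CPM) and Id1, a direct BMP target (log2 fold change 2.97 ± 0.26, 49.5 against 6.25 CPM), were higher as well, while Id4 was lower (log2 fold change -2.93 ± 0.33, 1.65 against 12.6 CPM). Fst had 745, 1076 and 830.3 CPM in XEN and 0.194 and 0.0502 CPM in TSC, and Nog, a secreted BMP antagonist, had 48.1, 47.6 and 35.1 CPM in XEN and 0.0485 and 0.1 CPM in TSC. Each was high in all XEN libraries and at 5 or fewer counts in TSC. The receptors Bmpr2 (log2 fold change -3.18 ± 0.16, 34.6 against 313 CPM), Tgfbr2 (log2 fold change -2.35 ± 0.14, 17.7 against 90.5 CPM) and Tgfbr3 (log2 fold change -4.50 ± 0.23, 9.09 against 207 CPM) were lower in TSC. The ligand Bmp2 was lower (log2 fold change -3.17 ± 0.27, 1.77 against 16 CPM), opposite to Bmp4.

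In calls of any size WNT genes were split, 24 higher in TSC and 13 lower of 49, shares near those of all tested genes. With ribosomal protein scaling the counts were 20 and 18. By at least 4-fold, 19 were higher (38.8%) and 8 lower (16.3%), against 15.6% and 10.2% of all tested genes. At that level ribosomal protein scaling gave 17 and 13. The ligand Wnt7b was higher (log2 fold change 3.95 ± 0.33, 357 against 22.8 CPM), and so was the pathway's transcription factor Tcf7 (log2 fold change 5.71 ± 0.50, 261 against 5.09 CPM). Axin2, a common target of the pathway, was higher (log2 fold change 2.29 ± 0.23, 17.6 against 3.55 CPM). Rspo1, an enhancer of WNT signals, was seen in TSC alone (at least 31.6-fold, 4.56 against 0 CPM). Fzd7 (log2 fold change -2.36 ± 0.15, 22.7 against 116 CPM), Fzd4 (log2 fold change -5.72 ± 0.28, 0.445 against 23.9 CPM) and Lgr4 (log2 fold change -2.18 ± 0.11, 18.6 against 84.5 CPM) were receptors that were lower in TSC. Dkk1, an inhibitor, had 4.54, 0.972 and 2.56 CPM in XEN and 0.0485 and 0.0502 CPM in TSC.

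Other growth factor receptors and ligands exchanged places between the lines. Igf2 had 207 and 187 CPM in TSC and no count in XEN (at least 1363-fold), whereas Igf1 had 32.3, 24.1 and 43.1 CPM in XEN and no count in TSC (at least 448-fold). The receptor they share, Igf1r, was higher in TSC (log2 fold change 1.42 ± 0.19, 32.9 against 12.4 CPM). Kit was lower in TSC (log2 fold change -5.12 ± 0.20, 15.3 against 531 CPM) together with its ligand Kitl (log2 fold change -2.62 ± 0.21, 3.08 against 19 CPM). Lifr and its partner Il6st (log2 fold change -2.19 ± 0.11, 52.2 against 239 CPM) were lower too. In the EGF receptor family Erbb3 (log2 fold change 4.62 ± 0.20, 81.2 against 3.31 CPM), Egfr (log2 fold change 3.69 ± 0.25, 49.6 against 3.96 CPM) and Erbb2 (log2 fold change 2.18 ± 0.13, 127 against 28.1 CPM) were higher in TSC. Pdgfb was seen in TSC alone (at least 81.8-fold, 11.8 against 0 CPM), opposite to the receptor Pdgfra, and Pdgfrb was slightly higher in TSC (log2 fold change 0.87 ± 0.23, 11.8 against 6.52 CPM).

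The Hippo pathway relays cell contact and position to TEAD factors. Of 23 genes of the pathway and its targets, 7 were higher in TSC and 14 lower, against 2 and 17 with ribosomal protein scaling. Ccn2, a TEAD target, had 1305, 459 and 1733 CPM in XEN and 0.242 and 0.0502 CPM in TSC, with replicate 2 the lowest in XEN. TSC held 6 counts in all, and the log2 fold change was -12.87 ± 1.43 (adjusted p = 3.34e-05). The targets Ccn1 (log2 fold change -4.60 ± 0.72, 4.02 against 98.1 CPM) and Ankrd1 (at least 124-fold, 0 against 9.14 CPM) were lower in TSC as well. TEAD factors themselves were divided, Tead3 (log2 fold change 4.35 ± 0.35, 83.4 against 4.16 CPM) and Tead2 (log2 fold change 2.60 ± 0.21, 211 against 35.0 CPM) being higher in TSC and Tead1 lower (log2 fold change -1.36 ± 0.14, 112 against 288 CPM). The co-activator Yap1 was 187 against 112 CPM. In retinoid handling 6 genes were higher and 10 lower of 20. Rarb, a receptor that retinoic acid itself induces, was high in XEN, with 28.4, 14.6 and 28.7 CPM in XEN and 0.0969 and 0.0502 CPM in TSC. Rarg was higher in TSC (log2 fold change 3.15 ± 0.27, 26.0 against 2.99 CPM).

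Genes of glucose use were higher in TSC, 24 of 35 tested, with 6 lower and a median of 1.27. With ribosomal protein scaling 13 were higher and 9 lower. The glucose transporters were exchanged: Slc2a1 (GLUT1) had 1104 and 1077 CPM in TSC and 136, 166 and 100.1 CPM in XEN (log2 fold change 3.03 ± 0.24), and Slc2a3 (GLUT3) had 226 and 214 CPM in TSC and 1429.9, 1488 and 993 CPM in XEN (log2 fold change -2.56 ± 0.18). Isoforms of the enzymes differed too. Pfkp, the platelet form of phosphofructokinase, had 339.5 and 327 CPM in TSC and 4.39, 3.24 and 0.976 CPM in XEN (log2 fold change 6.93 ± 0.36), while the liver form Pfkl was 470.1 against 181 CPM (log2 fold change 1.38 ± 0.28). Ldhb (log2 fold change 4.05 ± 0.21, 257 against 15.7 CPM) and Ldha (log2 fold change 1.48 ± 0.33, 1686 against 606 CPM), the subunits of lactate dehydrogenase, were both higher in TSC. Slc16a3, the lactate exporter MCT4, had 626 and 567 CPM in TSC and 19, 77.2 and 16.8 CPM in XEN, with XEN replicate 2 apart from the others (log2 fold change 4.00 ± 0.80, adjusted p = 0.0016), and the related Slc16a1 was lower in TSC (log2 fold change -1.28 ± 0.16, 211 against 512 CPM). Eno2, the neuronal enolase, was lower in TSC (log2 fold change -1.84 ± 0.64, 15.5 against 55.6 CPM), and Eno1 higher (log2 fold change 2.17 ± 0.26, 1382 against 307 CPM).

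Among cell cycle genes the D cyclins were not all on the same side. Ccnd2 had 109, 256 and 81.5 CPM in XEN and 1.11 and 1.16 CPM in TSC (log2 fold change -7.02 ± 0.76), and Ccnd3 was higher in TSC (log2 fold change 1.15 ± 0.13, 163 against 73.2 CPM). The shift of -1.06 under ribosomal protein scaling would leave Ccnd3 near level. Ccnd1 was higher at a low level (log2 fold change 3.09 ± 0.48, 2.92 against 0.349 CPM). Ccne1 was higher in TSC (log2 fold change 2.40 ± 0.13, 138 against 26.3 CPM), and Cdkn1c, an imprinted inhibitor needed for giant cells, was far higher in TSC (log2 fold change 8.13 ± 0.27, 69.8 against 0.215 CPM). Of 31 cyclins and inhibitors 19 were higher and 7 lower, against 9 and 15 with ribosomal protein scaling, and the median changed sign (0.67 to -0.39). Among Polycomb genes, which repress developmental genes, Phf19, an accessory factor of the methyltransferase complex, had 165 and 159 CPM in TSC and 0.157, 1.30 and 0.61 CPM in XEN (log2 fold change 7.89 ± 0.23, adjusted p = 2.76e-14). Ezh2, its catalytic subunit (log2 fold change 2.25 ± 0.14, 230.2 against 48.5 CPM), Cbx7 (log2 fold change 3.48 ± 0.16, 154 against 13.8 CPM) and Cbx2 (log2 fold change 3.25 ± 0.16, 72.4 against 7.61 CPM), readers of the mark, and Phc2 (log2 fold change 2.24 ± 0.11, 146 against 31.0 CPM) were the others at least 4-fold higher. In all 22 of 31 were higher and 7 lower. The median of 0.56 became -0.50 with ribosomal protein scaling, and 3 genes were then at least 4-fold higher. Of 18 DNA methylation genes 6 were higher in TSC and 10 lower. At the 4-fold level the numbers were 0 and 1. Under the ribosomal protein scaling 0 were higher and 14 lower, 0 and 6 of them by 4-fold. Dnmt1 was 351 against 221 CPM (log2 fold change 0.67), Tet1 29.2 against 55.6 CPM (-0.92) and Tet3 30.6 against 101 CPM (-1.72).

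Genes known from germ cells were higher in TSC where tested, 16 of 20, with 1 lower (median 5.49, or 3.41 with bounds). Tex19.1, which restrains retrotransposons in germ cells and placenta, had 165 and 177 CPM in TSC and no count in XEN (at least 1181-fold). Taf7l, a TBP-associated factor of germ cells (at least 81.0-fold, 11.7 against 0 CPM), Mov10l1, a helicase of the piRNA pathway (at least 53.7-fold, 7.76 against 0 CPM), and Tdrkh (log2 fold change 5.98 ± 0.30, 15.7 against 0.241 CPM) followed. The X-linked Rhox homeobox cluster had 7 of 16 genes tested, and all 7 were at least 4-fold higher in TSC. Rhox5 had 1729 and 1900.2 CPM in TSC and 1.25, 0.81 and 10.6 CPM in XEN, with XEN replicate 3 above the others (log2 fold change 8.61 ± 0.82, adjusted p = 1.15e-05). Rhox9 was higher as well (log2 fold change 9.5 ± 0.37, 284 against 0.337 CPM), and the near-identical copies Rhox4b and Rhox4d are uncertain, as their reads can be split between copies. Among 39 imprinted genes, 17 were higher and 12 lower in TSC, near the shares of all tested genes (42.7% and 30.5%). By at least 4-fold, 11 were higher (28.2%) and 4 lower (10.3%), against 15.6% and 10.2% of all tested genes. The median of 0.36 became -0.72 with ribosomal protein scaling. Mest had 85.0 and 91.3 CPM and Dlk1 8.38 and 9.29 CPM in TSC, with no count in XEN. Grb10, a growth inhibitor, had 384 and 368 CPM in TSC and 11.7, 10.0 and 26.3 CPM in XEN (log2 fold change 4.52 ± 0.40). Plagl1 (log2 fold change -5.75 ± 0.50, 0.667 against 36.4 CPM), Impact (log2 fold change -3.07 ± 0.18, 20.4 against 170.4 CPM) and Cd81 (log2 fold change -2.98 ± 0.24, 24.5 against 194 CPM) were lower in TSC, and Peg3 did not pass the test (log2 fold change -0.02 ± 0.12, 259 against 262 CPM, adjusted p = 0.906). These counts do not separate the parental alleles.

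Members of the GATA, SOX, KLF and T-box families of transcription factors took opposite sides. Of 17 SOX, 16 KLF and 13 T-box genes tested, 7, 7 and 6 were higher in TSC and 6, 6 and 4 lower. These counts are near the shares of all tested genes, 42.7% and 30.5%. By at least 4-fold, 35.3%, 25% and 46.2% were higher and 29.4%, 31.25% and 23.1% lower, against 15.6% and 10.2% of all tested genes. In the GATA family Gata1 (50.4-fold, 95% counting interval 14.0 to 416, 4.86 against 0.0813 CPM), Gata2 and Gata3 were higher in TSC and Gata4 and Gata6 lower. In the SOX family Sox2, Sox3 (at least 109.6-fold, 15.8 against 0 CPM), Sox15 (log2 fold change 6.76 ± 0.31, 47.8 against 0.444 CPM) and Sox21 (log2 fold change 2.68 ± 0.18, 151 against 23.3 CPM) were higher, and Sox17 and Sox7 lower. Among KLF genes Klf2 had 97.9 and 93.6 CPM in TSC and 1.88, 0.81 and 1.59 CPM in XEN (log2 fold change 6.04 ± 0.24), while Klf4 (log2 fold change -4.09 ± 0.14, 10.2 against 175 CPM) joined Klf5 on the XEN side. In the T-box family Eomes contrasted with Tbx3, a factor of extraembryonic endoderm, with 76.1, 71.4 and 67.9 CPM in XEN and 2.08 and 1.81 CPM in TSC (log2 fold change -5.20 ± 0.20). In the AP-2 family, by contrast, all 3 tested genes were higher in TSC. With ribosomal protein scaling Tfap2a was no longer called (adjusted p = 0.0767).

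Marker lists of other cell types were read for cells that a culture could hold. Their part in the results was not tested. Of 18 genes of embryonic fibroblasts 11 were tested, with 7 higher in TSC and 1 lower, and the summed level of the list was 43.2 to 47.9 CPM in TSC and 10.0 to 12.8 CPM in XEN. Col5a1 (log2 fold change 6.21 ± 0.44, 14.8 against 0.209 CPM) and Tbx15 (log2 fold change 4.04 ± 0.36, 13.6 against 0.809 CPM) made up most of it in TSC, while Col3a1, Lum, Meox1 and Meox2 had no count in either line and Dcn had 0 counts in TSC. The list of the pluripotent epiblast summed to 1665 to 1735 CPM in TSC and 247 to 273 CPM in XEN, with 10 genes higher and 1 lower of 16. Here Sox2, Utf1 (at least 3627-fold, 524 against 0 CPM), Pou3f1 (at least 1677-fold, 242 against 0 CPM) and Dppa4 (2515-fold, 95% counting interval 451 to 99347, 121 against 0.054 CPM) were higher in TSC. Pou5f1, the defining factor of pluripotent cells, had 0 counts in TSC and 1 in XEN, and Nanog had 17 and 2. Blood and endothelial genes summed to 229.5 to 240.1 CPM in TSC and 312 to 403 CPM in XEN, 4 higher and 4 lower of 9. Pecam1 (log2 fold change 8.43 ± 0.29, 136 against 0.408 CPM) and Kdr (log2 fold change 4.39 ± 0.33, 74.0 against 3.68 CPM) were higher in TSC and Tek (2887-fold, 95% counting interval 799 to 23838, 0.0502 against 139.8 CPM) and Cdh5 (log2 fold change -3.45 ± 0.13, 19.2 against 210.0 CPM) higher in XEN. Hbb-y and Emcn had no count in either line.

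By size and level, further genes outside these groups stood out. On the TSC side were Klhl13, an X-linked adaptor of ubiquitin ligases (log2 fold change 4.50 ± 0.16, 1205 against 53.2 CPM), Morc4 (log2 fold change 5.40 ± 0.15, 1052 against 25 CPM) and the creatine kinase Ckb (log2 fold change 4.16 ± 0.36, 381 against 21.2 CPM). In XEN, Aqp8, a water channel, had 518, 621 and 491 CPM and no count in TSC (at least 7343-fold). Enpep, an aminopeptidase that cleaves angiotensin, had 355, 218 and 479 CPM and no count in TSC (at least 4736-fold). Gkn2, a secreted protein known from the stomach, had 163, 238 and 524 CPM and no count in TSC (at least 4170.1-fold, adjusted p = 0.00194). These 3 were at 0 in both TSC libraries, and Gkn2 was highest in XEN replicate 3. The pepsinogen gene Pga5, also known from the stomach, had 368, 213 and 640.3 CPM in XEN and 1 count in TSC. Flrt3, a membrane protein of endoderm (log2 fold change -12.35 ± 0.32, 0.124 against 687 CPM), Hkdc1, a hexokinase relative (3432-fold, 95% counting interval 1174 to 16642, 0.0753 against 252 CPM), and Epas1, or HIF-2alpha (log2 fold change -7.28 ± 0.23, 5.18 against 804 CPM), were lower in TSC.

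**Figure D4:**
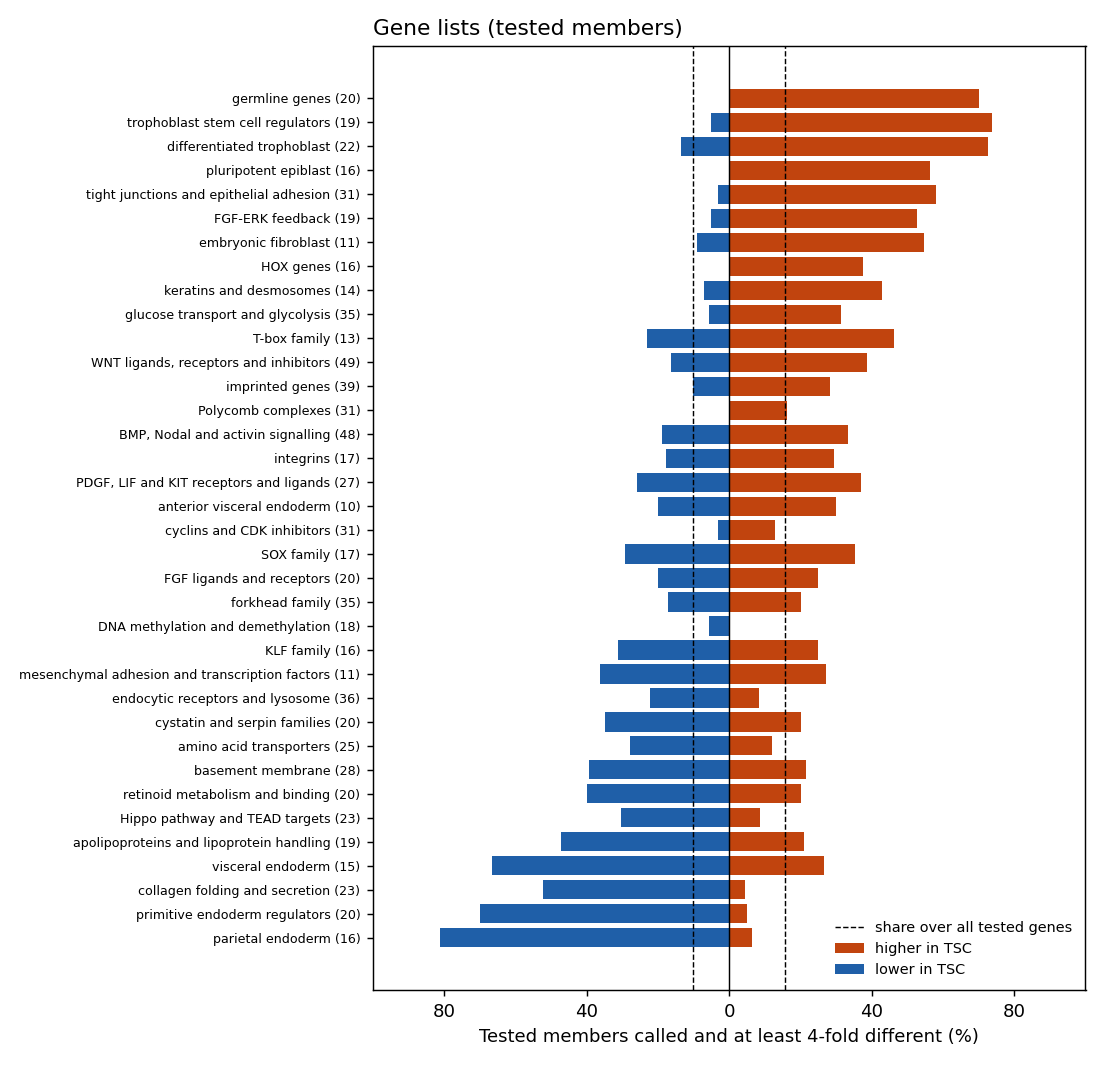
Share of the tested members of each gene list or family with at least 10 tested genes (number in brackets) that were called and at least 4-fold higher in TSC (orange, to the right) or lower in TSC (blue, to the left), in percent. The dashed lines mark the shares over all tested genes, 15.6% and 10.2%; 14 of the 19 TSC regulators are on the right.

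The same comparison in the STM2457 arm, in libraries of its own, gave 2258 genes at least 4-fold higher in TSC (15.9%) and 1404 lower (9.86%). Of the genes at least 4-fold higher in DMSO 2025 were also so in STM2457, 90.9% of the DMSO set and 89.7% of the STM2457 set. For genes lower in TSC the number was 1251, 86.2% and 89.1%. No gene was called in opposite directions in the arms. The STM2457 libraries came from the same lines and were tested in the same fit over all 14 libraries. They also showed the same difference in make-up, with more mitochondrial ribosomal RNA in XEN and more ribosomal protein RNA in TSC. The repeat therefore cannot tell the line apart from its medium or its library make-up, whose part was not tested. For the markers, the log2 fold change of Eomes was 8.67 in DMSO and 8.01 in STM2457, that of Gata4 -4.81 and -4.66, and that of Gata6 -6.98 and -6.48. Col4a1 had -7.26 and -7.28. The difference between arms was itself tested in each gene, and 1 gene passed (764 had an unadjusted p under 0.05). Chst15, a sulfotransferase of chondroitin sulfate chains named here after its values were seen, had 177, 171 and 191 CPM in XEN and 0.145 and 0.251 CPM in TSC in DMSO. Its log2 fold change was -9.77 in DMSO and -7.45 in STM2457.

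Chromosomes differed in the median fold change of their genes. Chromosome 19, with 504 tested genes, lay furthest below the median of all genes, at -0.76 on the log2 scale, and chromosome 16 followed at -0.69. Chromosome 11 lay furthest above, at 0.51, then chromosomes 7 (0.43) and 4 (0.38). On chromosome 19, 101 genes were higher in TSC and 273 lower, and on chromosome 11 676 and 190. Each library can be set against the mean of both lines, with its own median deviation over all tested genes subtracted. On chromosome 19 the medians were -0.38 and -0.38 in TSC and 0.39, 0.34 and 0.41 in XEN, and on chromosome 16 -0.30 and -0.30 and 0.25, 0.47 and 0.21. On chromosome 11 they were 0.24 and 0.23 in TSC and -0.17, -0.21 and -0.27 in XEN. Replicates lay close together and the lines apart in all 3, with XEN replicate 2 higher on chromosome 16. On that scale the EpiSC libraries, which did not set the mean, were on the TSC side for chromosome 19 (-0.46 and -0.45) and chromosome 16 (-0.30 and -0.31) and on the XEN side for chromosome 11 (-0.28 and -0.30). In the STM2457 arm the deviations of chromosomes 19, 16 and 11 were -0.80, -0.68 and 0.43. The X chromosome lay at -0.38. Chromosome number and gene dosage in the lines were not measured, and their part was not tested. Longer transcripts had lower values in TSC: in 4 equal groups ordered from the shortest to the longest exon length, the median log2 fold change was 0.52, 0.43, 0.17 and -0.20 in DMSO and 0.40, 0.37, 0.17 and -0.12 in STM2457.

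**Figure D5:**
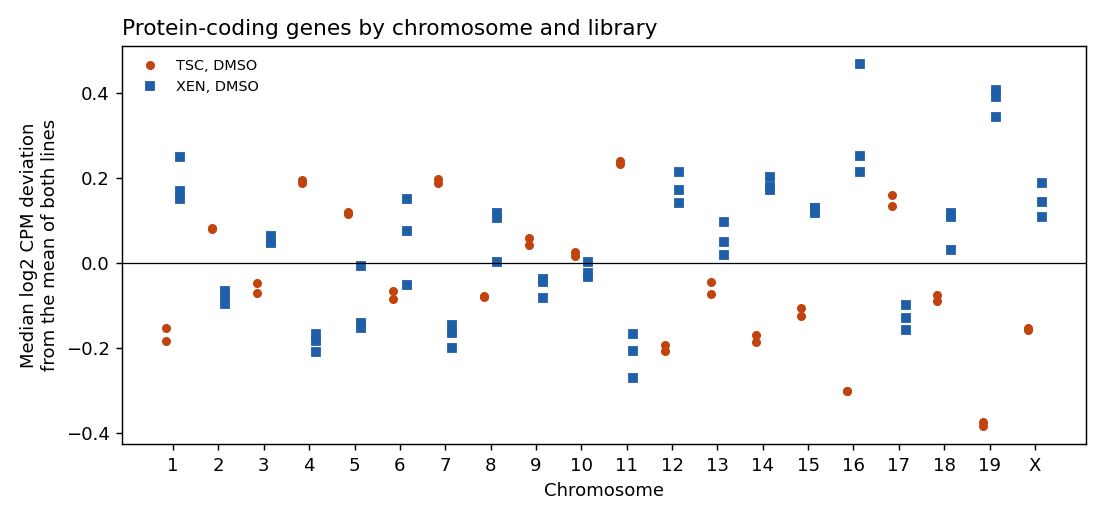
Median over the tested protein-coding genes of each chromosome of the deviation of a library's log2 CPM from the mean of both lines. The same library's median deviation over all tested genes is subtracted. Shown are 2 TSC libraries (orange circles) and 3 XEN libraries (blue squares) in DMSO. The lines are farthest apart on chromosome 19, where TSC lie at -0.38 and -0.38 and XEN between 0.34 and 0.41.

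Since the GATA and AP-2 families and the Hippo pathway's TEAD factors differed between the lines, promoters were searched for the letters these factors are known to bind. The 250 bases before the start of a gene were taken from RefSeq (GRCm38.p6), which matched 11124 of 14238 tested symbols. The letters were AGATAA or TGATAA for GATA factors, GGAATG for TEAD and GCCNNNGGC for AP-2, on either strand. GATA letters were in 16.6% of all 32851 RefSeq starts and in 9.25% of the starts of tested genes. They were in 7.93% of the starts of genes at least 4-fold higher in TSC and in 13.9% of those at least 4-fold lower. TEAD letters were in 12.6% of all starts, 11.0% of those of tested genes, 11.5% of the higher set and 15.9% of the lower set. AP-2 letters were in 13.7%, 20.6%, 21.5% and 20.5%. Genes on either side held matches to each set of letters. Klhl13, higher in TSC, had 2 GATA matches before a RefSeq start. Aqp8, high in XEN, had 1 TEAD match, and Col4a1, Col4a2 and Lrp2, also high in XEN, had 1 AP-2 match each. The stretches printed below are examples and leave these out. A match describes letters and is not evidence of binding. The following stretches, 5′ to 3′ on the gene's strand with the matched letters in capitals, show such matches in genes described above: Gkn2 (chr6:87373115-87373364, + strand, 2 GATA matches) and Lifr (chr15:7140292-7140541, + strand, 1 GATA match; its other RefSeq start has none), both high in XEN; Elf5 (chr2:103411848-103412097, + strand, 1 TEAD match; its other RefSeq start has none) and Gata3 (chr2:9878601-9878850, - strand, 3 AP-2 matches), both high in TSC.
Gkn2: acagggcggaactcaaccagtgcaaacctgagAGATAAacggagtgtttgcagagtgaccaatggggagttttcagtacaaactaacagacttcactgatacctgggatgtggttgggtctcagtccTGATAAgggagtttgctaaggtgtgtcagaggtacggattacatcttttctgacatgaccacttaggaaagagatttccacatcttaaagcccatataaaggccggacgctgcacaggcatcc
Lifr: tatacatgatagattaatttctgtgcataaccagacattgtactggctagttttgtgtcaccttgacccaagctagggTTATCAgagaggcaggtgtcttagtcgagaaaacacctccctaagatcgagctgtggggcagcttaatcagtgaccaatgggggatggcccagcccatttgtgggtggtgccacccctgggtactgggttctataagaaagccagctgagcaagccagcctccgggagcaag
Elf5: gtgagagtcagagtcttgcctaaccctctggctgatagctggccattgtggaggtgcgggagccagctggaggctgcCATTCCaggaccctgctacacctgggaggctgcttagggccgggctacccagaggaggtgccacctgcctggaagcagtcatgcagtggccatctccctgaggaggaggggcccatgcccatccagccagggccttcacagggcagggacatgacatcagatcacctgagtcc
Gata3: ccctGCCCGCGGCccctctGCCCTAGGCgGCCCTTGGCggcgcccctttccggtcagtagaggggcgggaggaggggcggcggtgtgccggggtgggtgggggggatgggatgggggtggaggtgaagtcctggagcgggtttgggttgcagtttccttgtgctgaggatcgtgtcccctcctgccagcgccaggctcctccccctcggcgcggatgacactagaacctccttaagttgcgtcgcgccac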

How the data were processed

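Total RNA was extracted with TRIzol and made into libraries with a TruSeq stranded total RNA kit, per the labels' protocols. The deposited values are raw counts per gene, and the authors' tools were FastQC, Trim Galore, STAR and featureCounts with the build GRCm39, per the submitters' processing notes, which give no roles or order. No version or strand setting is stated there, and reads of a gene and an overlapping or antisense gene may not be told apart. Symbols and gene types came from GENCODE M21 by Ensembl identifier, and 3281 of 55416 identifiers had none. Promoter stretches came from RefSeq on GRCm38.p6.

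Genes were tested with edgeR 4.0.16 in R 4.3.3 (quasi-likelihood, robust, TMM scaling) over all 14 libraries in 6 groups, after filterByExpr (minimum count 10, minimum total 15). P-values were adjusted over 18430 genes, of which the 14243 member genes are reported. SE is the absolute log2 fold change divided by the square root of F, which can understate the error where a line had few counts. The member genes and the 32 lists and 11 families were chosen with earlier results of these data known, and the lists' directions are no independent support. Named genes are the 6 markers, the 12 genes per direction with the largest fold (at least 10 CPM in the higher line, 4-fold, no overlap), the 12 per direction with the highest level (16-fold), up to 4 per direction in each list and family, and members a sentence needed for their role. Alternatives were RLE factors, DESeq2 1.42.0, scaling to protein-coding or ribosomal protein genes, other low-count filters, the 5 libraries alone, thinned libraries, a block for replicate number, and dropping single libraries. The test was checked on simulated counts. Results for some genes are not reported here.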

Additional observations from a re-analysis of the deposited data

Results flagged for a closer look

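Chst15 was the gene for which the difference between the lines itself differed between DMSO and STM2457. Its log2 fold change, TSC minus XEN, was -9.77 in DMSO and -7.45 in STM2457. The difference between these was 2.32 ± 0.32, with an adjusted p of 0.0329 over all genes (edgeR quasi-likelihood test of the interaction). It rests on low values in TSC, 0.145 and 0.251 CPM in DMSO and 1.33 and 1.15 CPM in STM2457.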

How the results depend on the processing

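Scaling to ribosomal protein genes was the setting that moved the counts by over 1.5 times: 2437 genes were then higher in TSC and 8248 lower, and 2948 were at least 4-fold lower. It lowers every log2 fold change by nearly the same amount, by its own construction. Of the genes at least 4-fold higher in TSC, 1523 stayed so under it, and all 1452 of the lower ones. Under the other settings 9049 to 10510 genes were called in DMSO and 2849 to 3881 at 4-fold, and no 4-fold gene was called in the opposite direction. The fewest calls, 9049, came from fitting the 5 DMSO libraries of TSC and XEN alone, with 2997 at 4-fold. Leaving out 1 library at a time gave 9397 to 10406 calls and 3542 to 3677 at 4-fold in DMSO, and 9302 to 10308 calls in STM2457. The replicate block gave 10390 calls and 3576 at 4-fold in DMSO, and 10438 and 3552 in STM2457. Libraries of the same number were not shown to be paired: the correlation of their deviations was -0.05 for number 1 and -0.05 for number 2. Of 3379 values of 247 named genes over 14 alternatives, 3357 kept direction and call, 22 lost the call and 0 reversed. The 10 genes that lost it somewhere were Cd34, Spi1, Fgfr1, Apoa4, Apobec1, Sox6, Tfap2a, Serpinb9c, Serpinb1a and Psg29. Leaving out a single library did so for Cd34, Spi1, Apoa4, Apobec1, Sox6, Serpinb9c and Psg29, whose values are not given in the report. Depth limits genes with few counts in XEN, whose libraries are the shallower: with libraries thinned to the smallest total, 3157 genes were called at 4-fold, against 3679.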

Other observations

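Amino acid transporters were exchanged between the lines. Of 25 tested, 8 were higher in TSC and 11 lower, with ribosomal protein scaling 4 and 15. In the SLC38 family of neutral amino acid carriers, Slc38a4, an imprinted gene of the placenta, had 92.3 and 92.2 CPM in TSC and 0.157, 0 and 2.20 CPM in XEN (log2 fold change 6.66 ± 0.58), and Slc38a3 had 41.4 and 43.3 CPM in TSC and 0, 0.162 and 0 CPM in XEN (879-fold, 95% counting interval 158 to 34720.0). Slc38a1 (log2 fold change -2.85 ± 0.13, 105 against 758 CPM) and Slc38a2 (log2 fold change -2.59 ± 0.13, 139.8 against 843 CPM) were lower in TSC, and Slc38a5 had 10.5, 12.3 and 10.9 CPM in XEN and no count in TSC. The cationic carrier Slc7a1 was lower (log2 fold change -1.86 ± 0.12, 34.1 against 124 CPM), and Slc7a8, a carrier of large neutral amino acids, higher (log2 fold change 3.95 ± 0.23, 49.7 against 3.14 CPM).

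Protease inhibitors and forkhead factors held genes on either side. Of 20 tested cystatin and serpin genes, 5 were higher in TSC and 12 lower, or 3 and 14 with ribosomal protein scaling. Serping1, the inhibitor of complement C1, was lower (476-fold, 95% counting interval 132 to 3927, 0.0493 against 23.9 CPM). Near-identical copies such as the Serpinb9 genes are uncertain. Of 35 forkhead genes tested, 10 were higher in TSC and 8 lower, and 17 were not called. These are smaller shares than the 42.7% and 30.5% of all tested genes. By at least 4-fold, 20% were higher and 17.1% lower, against 15.6% and 10.2%. With ribosomal protein scaling 7 were higher and 15 lower. Among forkhead genes Foxh1, a partner of SMADs in Nodal signalling, had 15.7 and 15.8 CPM in TSC and no count in XEN (at least 109-fold). Foxe1 had 17.7 and 17.5 CPM in TSC and 0, 0 and 0.122 CPM in XEN. Foxq1 (log2 fold change -3.92 ± 0.60, 4.42 against 66.8 CPM) and Foxn3 (log2 fold change -2.68 ± 0.17, 22.8 against 146 CPM) were lower in TSC. Of 16 tested HOX genes, 8 were higher in TSC and 0 lower (5 and 0 with ribosomal protein scaling), at low levels such as 4.38 against 0.0522 CPM for Hoxb13.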
